A study of Sus scrofa with 8 samples.

Results

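In the jejunum of suckling and weaned piglets, 9 genes that move iron, copper and other metals into, through and out of cells were followed: CYBRD1, SLC11A2, SLC40A1, TFRC, FTH1, HAMP, FLVCR2, SLC31A1 and MT1A. The probe of each gene was chosen by intensity: it was the one with the highest mean log2 intensity over all arrays, among those whose RefSeq accession maps to its symbol. Of the 9 genes, 8 had such a probe, out of 3216 symbols with a probe on the array. SLC40A1, the iron exporter ferroportin, matched none and was not analysed here. CYBRD1, SLC31A1 and FLVCR2 were on the list because an earlier analysis of these arrays had named them for their difference between the groups, so their differences are given as a description with no test.

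All piglets were Duroc × Landrace, 25 days old and from 4 litters. The 4 suckling piglets had stayed with the sow, and the 4 weaned piglets had been taken from her at 21 days and offered water and a basal diet (14.48 MJ/kg DE, 20.50% crude protein) freely, and were sampled after 4 days without her. Each 1-colour array held the RNA of a 2 cm piece of mid-jejunal wall from 1 piglet, a mixture of epithelium, immune cells, vessels and muscle. The labels tie no replicate number to a litter.

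Iron from the diet is reduced at the brush border of the enterocyte by CYBRD1 and carried in by SLC11A2 (DMT1). Inside the cell it is stored in ferritin, of which FTH1 is the heavy chain, or leaves through ferroportin, which the peptide hormone hepcidin (HAMP) removes from the membrane. TFRC takes up transferrin-bound iron from the blood side. SLC31A1 (CTR1) imports copper, and metallothioneins such as MT1A bind zinc and copper and are induced by metals and by stress hormones. FLVCR2 was first described as a heme importer and has since been shown to carry choline.

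Signals are log2 intensities relative to each array's own 75th percentile, so a value of 0 marks that percentile. The 75th percentile of the raw intensity was 245 in suckling replicate 1, 317 in weaned replicate 1 and 341 to 395 on the other arrays. Each array had 67.6% to 71.0% of its probes well above background. Suckling replicate 1 stood apart: its mean correlation with the other suckling arrays was 0.958 across probes, against 0.972 to 0.975 for the others. The array it resembled most was weaned replicate 1 (r = 0.978), but suckling replicate 3 too was nearest to a weaned array, weaned replicate 3 (r = 0.983). Differences of the 8 genes and of the other genes named are therefore given with and without suckling replicate 1. Of all tested probes, 30.4% had their lowest and 37.3% their highest suckling value on that array; it was the lowest suckling array for CYBRD1, SLC31A1 and SLC11A2 and the highest for HAMP, FLVCR2 and MT1A. The suckling arrays shared a slide and the weaned arrays shared another, each scanned once, and the effects of slide and group cannot be told apart here. Arrays with the same replicate number had the same position on their slides. The epithelium was represented: of 18 listed enterocyte markers 10 had a probe, and 9 of these were well above background on all 8 arrays.

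The comparison asks how weaning relates to the level of these genes. None of the 8 passed the threshold of a limma adjusted p under 0.05 over all tested probes with the 8 arrays, where 54 of 30554 tested probes (0.177%) did, 0.173% higher and 0.00327% lower in weaned piglets. At an unadjusted p under 0.05 by limma, 2 of the 8 passed, HAMP and MT1A, against 12.3% of tested probes. The weaned mean was higher for HAMP, FLVCR2 and MT1A and lower for CYBRD1, SLC31A1, SLC11A2, TFRC and FTH1, where the weaned mean was higher for 54.9% and lower for 45.1% of tested probes. A total of 6 of the 8 differed by over 1 on the log2 scale, as did 3% of tested probes. The median difference over the 8 genes was -0.32, and over all tested probes 0.04. The groups did not overlap for 3 of the 8 (FTH1 lower, HAMP and MT1A higher in all weaned arrays), against 7.76% of tested probes, 2.83% lower and 4.93% higher. Since the genes were chosen with results of this contrast known, nothing is read from these shares. The p-values and intervals given below for single genes carry the same limit. The intervals of MT1A and HAMP leave out 0, but are adjusted neither for this choice nor for the number of probes.

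**Figure D1:**
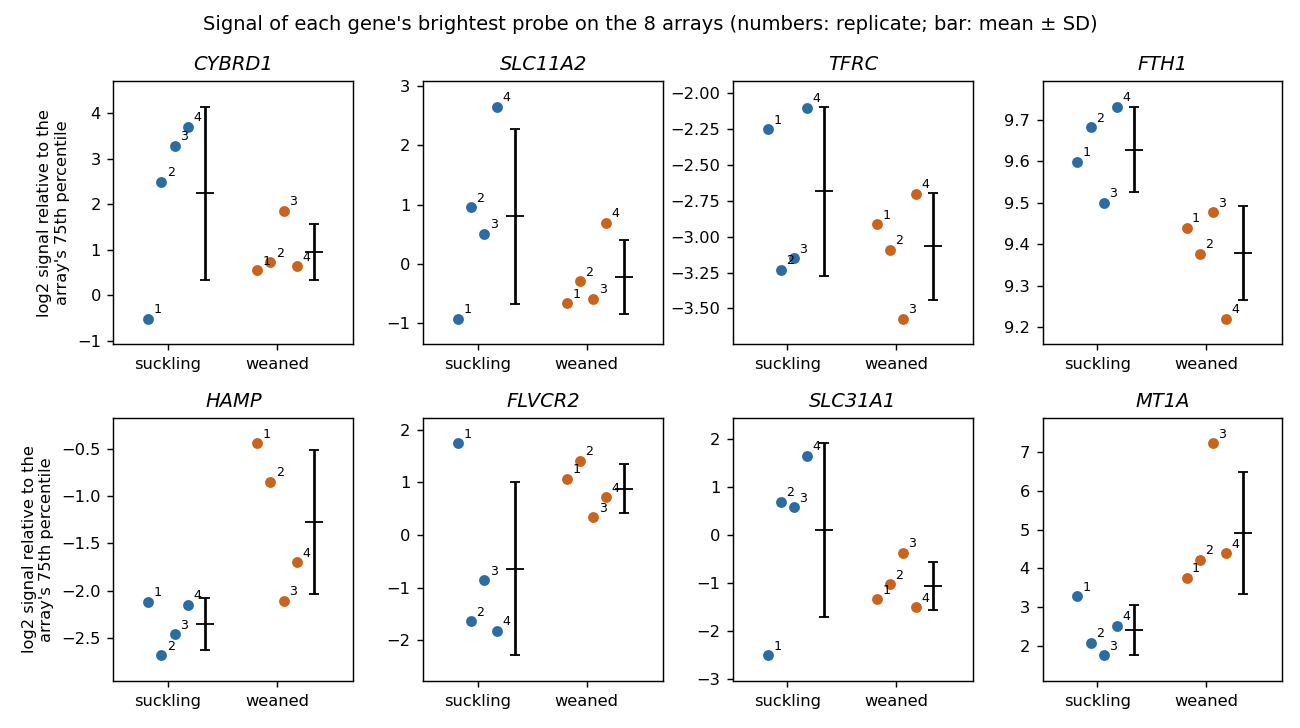
Log2 signal relative to the array's 75th percentile for the brightest probe of each of the 8 genes, with 1 point per array labelled by replicate number and the mean ± SD of each group (n = 4) as a bar; each panel has its own axis. Suckling replicate 1 is the lowest array of all for CYBRD1, SLC11A2 and SLC31A1 and the highest of all for FLVCR2, and weaned replicate 3 is the highest for MT1A.

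CYBRD1, the brush border iron reductase, was high on 3 of the 4 suckling arrays and lowest of all on the other. Its signal was -0.52, 2.49, 3.28 and 3.70 in suckling replicates 1 to 4 and 0.54, 0.72, 1.85 and 0.63 in weaned replicates 1 to 4. Suckling replicates 2, 3 and 4 lay above all weaned arrays and replicate 1 below all of them, so the groups overlapped. The means were 2.24 ± 1.91 and 0.94 ± 0.62 (SD, n = 4 each), a difference of -1.30 (SE 0.83). The suckling arrays spanned 18.6-fold and the weaned arrays 2.48-fold. Without suckling replicate 1 the difference was -2.22 (SE 0.39), or 4.66-fold lower in weaned piglets.

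SLC31A1, the copper importer, had nearly the same order of arrays as CYBRD1. Its signal was -2.51, 0.69, 0.58 and 1.65 in suckling replicates 1 to 4 and -1.34, -1.02, -0.37 and -1.51 in the weaned ones. Here too suckling replicates 2 to 4 were above and replicate 1 below every weaned array. The difference was -1.16 (SE 0.77) with all arrays and -2.03 (SE 0.34), or 4.09-fold lower in weaned piglets, without suckling replicate 1. For both genes suckling replicate 4, the highest array, pulled the other way: without it the difference was -0.81 for CYBRD1 and -0.65 for SLC31A1.

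SLC11A2, the iron importer that works beside CYBRD1, was -0.93, 0.96, 0.51 and 2.66 in suckling replicates 1 to 4 and -0.66, -0.30, -0.59 and 0.69 in weaned replicates 1 to 4. The groups overlapped, also without suckling replicate 1, because weaned replicate 4 lay above suckling replicate 3. The difference was -1.01 (SE 0.66, limma adjusted p = 0.574; 95% interval -2.52 to 0.49). It was -1.59 without suckling replicate 1 (limma adjusted p = 0.136, the lowest over the alternatives, which reached 0.817) and -0.40 without suckling replicate 4. Its second probe gave -1.51 with all arrays and -2.19 without suckling replicate 1, where the groups no longer overlapped on that probe.

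Enterocyte markers were set beside the 3 uptake genes. The summed signal of the 10 markers, in multiples of the 75th percentile, was 662 in suckling replicate 1 and 2639, 2480 and 3454 in suckling replicates 2 to 4, and 1061, 1406, 2159 and 1666 in weaned replicates 1 to 4. All 10 markers were lowest among the suckling arrays in replicate 1, but by unlike amounts. The value in replicate 1 minus the mean of the other suckling arrays was -0.34 for EPCAM and -1.11 for FABP1. It was -4.54 for APOA1 and -5.05 for MEP1A, which was not well above background on that array. The linear sum is carried by the brightest markers: FABP1, DPP4, MEP1A and SLC15A1 had a higher and the other 6 a lower weaned mean, and the median difference of the 10 was -0.03, and -0.51 without suckling replicate 1. The exact two-sided permutation test of this sum gave p = 0.286 (n = 4 each), and 0.0571 without suckling replicate 1. Suckling replicate 4 was the highest and suckling replicate 1 the lowest array for this sum and for each of the 3 genes. In bulk tissue, fewer enterocytes and less RNA per enterocyte cannot be told apart, and the part of the marker level in these differences was not tested.

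**Figure D2:**
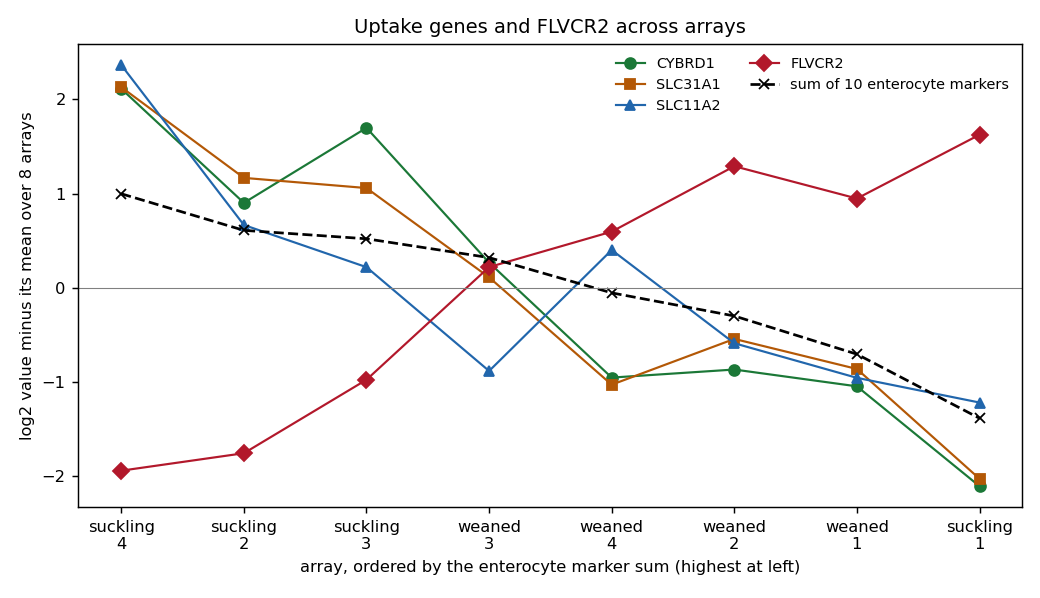
Log2 value of CYBRD1, SLC31A1, SLC11A2 and FLVCR2, and of the summed enterocyte markers (dashed), each minus its own mean over the 8 arrays, with arrays ordered by the marker sum. The 3 uptake genes are highest in suckling replicate 4 and lowest in suckling replicate 1, while FLVCR2 is lowest in suckling replicate 4 and highest in suckling replicate 1.

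FLVCR2 showed the mirror image of the uptake genes. Its signal was 1.74, -1.64, -0.86 and -1.82 in suckling replicates 1 to 4 and 1.07, 1.41, 0.34 and 0.71 in weaned replicates 1 to 4. Suckling replicate 1 was above every weaned array and the other 3 suckling arrays below all of them. The difference was 1.53 (SE 0.71) with all arrays and 2.32 (SE 0.31), or 5.00-fold higher in weaned piglets, without suckling replicate 1. It was 1.13 without suckling replicate 4 and 1.19 without suckling replicate 2. The lowest over the alternatives was 0.88, under normexp correction with quantile normalisation. A second probe, also well above background on all 8 arrays, differed by 0.80, and by 1.05 without suckling replicate 1. The other 2 probes were well above background on 4 weaned but only 3 and 1 suckling arrays, so no size is given for them. Markers of dividing crypt cells were set beside it: the summed signal of their 5 markers with a probe was 41.5, 16.3, 23.6 and 16.0 in suckling replicates 1 to 4 and 39.4, 33.3, 24.2 and 40.3 in the weaned ones (exact two-sided permutation p = 0.257, and 0.0571 without suckling replicate 1). ASCL2, a stem cell factor and 1 of the 5, ran otherwise, highest in weaned replicate 3 (2.22) and in suckling replicate 2 (2.12). The part of these markers in the FLVCR2 values was not tested.

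Without suckling replicate 1, CYBRD1, SLC31A1 and FLVCR2 were past the limma threshold, which describes the result that put them on the list and is no separate evidence. With those 7 arrays 553 of 30344 tested probes (1.82%) did so, of which the higher made up 1.23% and the lower 0.59% of those tested. The groups then did not overlap for 6 of the 8 genes (CYBRD1, SLC31A1 and FTH1 lower, HAMP, FLVCR2 and MT1A higher in weaned piglets), against 20.5% of tested probes, 8.34% lower and 12.2% higher.

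**Figure D3:**
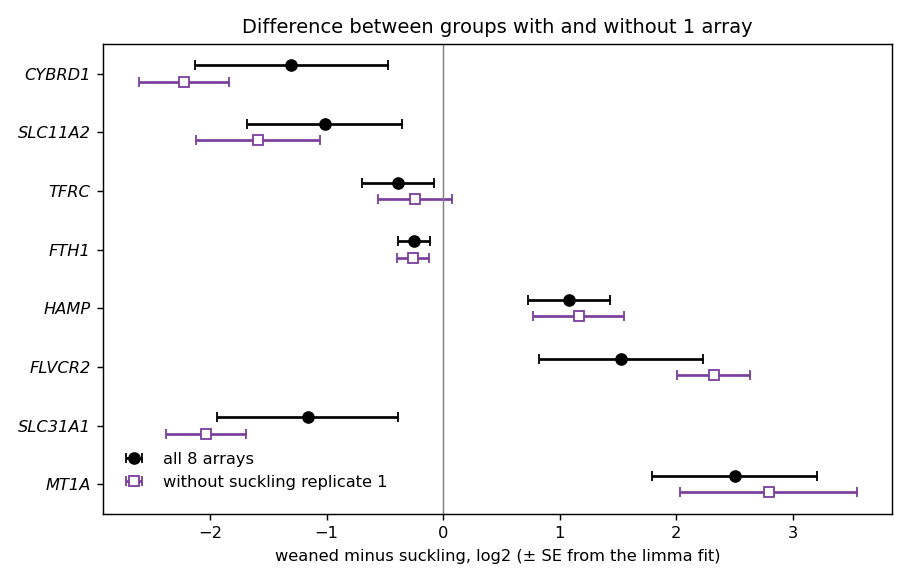
Weaned minus suckling difference (log2, ± SE of the limma fit) of the 8 genes with all 8 arrays (filled circles) and without suckling replicate 1 (open squares). Leaving this array out moved CYBRD1 from -1.30 to -2.22 and FLVCR2 from 1.53 to 2.32, and moved FTH1 and HAMP by less than 0.1.

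MT1A, a metallothionein, had the largest difference of the 8. Its signal was 3.27, 2.08, 1.75 and 2.52 in suckling replicates 1 to 4 and 3.76, 4.23, 7.24 and 4.40 in weaned replicates 1 to 4. Every weaned array was above every suckling array, and weaned replicate 3 stood well above the other 3. The means were 2.41 ± 0.66 and 4.91 ± 1.58 (SD, n = 4 each), 5.66-fold apart, with a difference of 2.50 (SE 0.71, limma adjusted p = 0.234; 95% interval 0.90 to 4.10). Without weaned replicate 3 the difference was 1.72, and without suckling replicate 1 it was 2.79; the limma adjusted p lay between 0.0908 and 0.442 over the alternatives. The second MT1A probe behaved alike, with a difference of 2.85 and no overlap. Metallothionein genes are similar in sequence, so these probes may also detect relatives, and the value is uncertain as one for MT1A alone. In weaned replicate 3, 8 of the 10 enterocyte markers were also highest among the weaned arrays, with a marker sum of 2159 against 1061 to 1666 on the other weaned arrays. The suckling arrays ran otherwise: replicate 1 had the lowest sum of all (662) and the highest suckling MT1A value. Suckling replicates 2 to 4 had sums of 2480 to 3454 and MT1A values below every weaned array. The part of these markers in the MT1A values was not tested.

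HAMP, the hepcidin gene, was dim but well above background on all 8 arrays. Its signal was -2.12, -2.69, -2.46 and -2.15 in suckling replicates 1 to 4 and -0.44, -0.85, -2.11 and -1.70 in weaned replicates 1 to 4. All weaned arrays were higher, but weaned replicate 3 was above suckling replicate 1 by less than 0.01. The difference was 1.08 (SE 0.35, limma adjusted p = 0.287; 95% interval 0.28 to 1.88), or 2.12-fold, and the adjusted p lay between 0.137 and 0.574 over the alternatives. With normexp background correction and quantile normalisation it was 0.55, and 1.06 under quantile normalisation alone. The second HAMP probe had a difference of 1.37 with overlapping groups.

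Hepcidin is made mainly in the liver and also by macrophages, so markers of both were set beside it. The 5 macrophage markers with a probe were well above background on all arrays. They summed to 30.1 to 33.7 in suckling and 42.3, 42.7, 32.0 and 35.3 in weaned replicates 1 to 4. The exact two-sided permutation p was 0.0571, and 0.229 under quantile normalisation or 0.114 with suckling replicate 1 left out. The arrays with most HAMP, weaned replicates 1 and 2, also had the highest sums. All 5 markers had a higher weaned mean, but they ran unlike each other over the arrays. CD14 and SPI1 were highest in weaned replicates 1 and 2, and AIF1 in weaned replicate 2. CD163 was highest of all in suckling replicate 1 (3.96), where CD74 was lowest of all (1.93). The CD74 difference was 0.26, or -0.14 without suckling replicate 1. The 3 hepatocyte markers with a probe summed to 0.90 to 1.56 in suckling and 1.46, 4.43, 2.45 and 1.60 in weaned replicates 1 to 4 (exact two-sided permutation p = 0.0571, and 0.171 without suckling replicate 1). SERPINA1 was the brightest of the 3 on every array and alone had a higher weaned mean, by 1.02, or 1.08 without suckling replicate 1. ALB (albumin) lay at -4.45 ± 0.61 in suckling and -4.82 ± 0.28 in weaned piglets (SD, n = 4 each), near the lowest signals well above background on each array (-5.80 to -5.29). Its difference was -0.36, or -0.07 without suckling replicate 1. TTR also had a lower weaned mean, but was well above background on only 3 suckling arrays and 1 weaned array, so no size is given. The part of either cell type in the HAMP difference was not tested.

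FTH1, the ferritin heavy chain, was very bright and varied little. Its signal was 9.60, 9.68, 9.50 and 9.73 in suckling replicates 1 to 4 and 9.44, 9.38, 9.48 and 9.22 in weaned replicates 1 to 4. The weaned arrays were all lower, with 0.02 between the nearest arrays of the groups. The difference was -0.25 (SE 0.13, limma adjusted p = 0.492; 95% interval -0.55 to 0.05), or 1.19-fold, and all 10 FTH1 probes had a lower weaned mean, by 0.22 to 0.71, although the value of the brightest probe turned to 0.03 under normexp correction with quantile normalisation. Under quantile normalisation alone and in the deposited log2 table it was -0.01 and -0.03. No FTH1 spot was marked as saturated, and ferritin heavy chain genes have close copies that these probes may also detect.

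TFRC, the transferrin receptor, showed no difference larger than the spread between replicates. Its signal was -2.25, -3.23, -3.15 and -2.10 in suckling replicates 1 to 4 and -2.91, -3.09, -3.57 and -2.70 in weaned replicates 1 to 4. The groups overlapped, with suckling replicates 1 and 4 above all weaned arrays and weaned replicate 3 lowest. The difference was -0.39 (SE 0.31, limma adjusted p = 0.649; 95% interval -1.08 to 0.31). It was -0.24 without suckling replicate 1, -0.19 without suckling replicate 4 and -0.22 without weaned replicate 3.

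**Figure D4:**
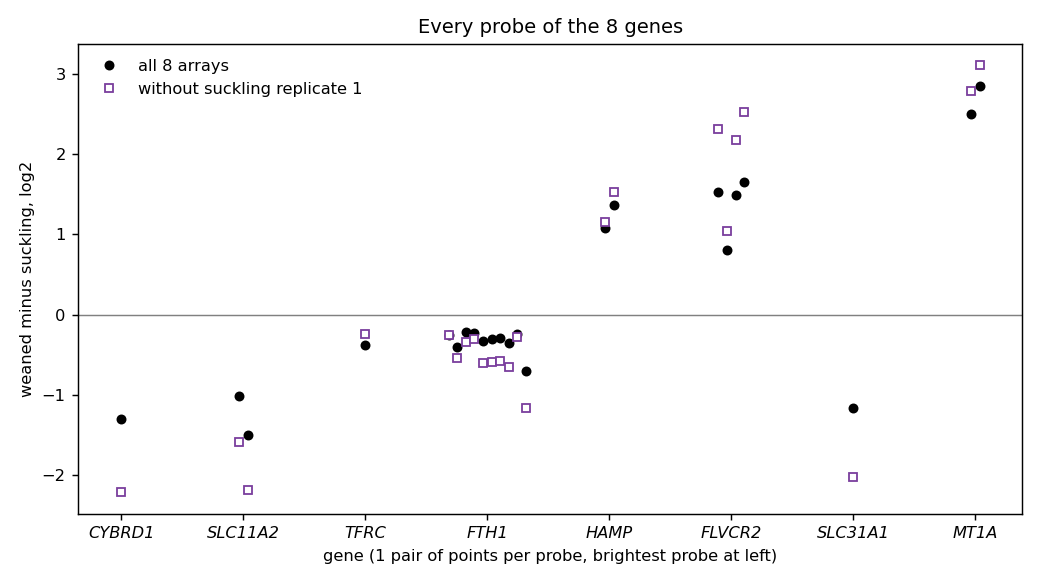
Weaned minus suckling difference (log2) of every probe of the 8 genes with all 8 arrays (filled circles) and without suckling replicate 1 (open squares), brightest probe at left within a gene. All probes of a gene lie on the same side of 0, from the 10 FTH1 probes between -0.71 and -0.22 to both MT1A probes above 2; the 2 dimmest FLVCR2 probes were not well above background on all suckling arrays, so the size of their differences is not read.

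For 5 of the 8 genes several probes could have been chosen. The brightest and second-brightest had mean log2 raw intensities of 17.96 and 17.76 for FTH1, 12.12 and 11.69 for MT1A, 8.75 and 5.44 for SLC11A2, 8.58 and 7.17 for FLVCR2, and 6.65 and 5.09 for HAMP. CYBRD1, SLC31A1 and TFRC had 1 probe each, so for these nothing within the array repeats the measurement.

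The remaining metal-handling genes came from role lists of 99 further symbols, of which 36 had a probe and 34 were tested. None passed a limma adjusted p under 0.05, with all arrays or without suckling replicate 1. With all arrays 3 of the 34 had an unadjusted p under 0.05 by limma, against 12.3% of tested probes. The weaned mean was higher for 16 and lower for 18, with a median difference of -0.03 against 0.04 over all tested probes. The groups did not overlap for 2 of the 34, against 7.76% of tested probes. In each list the brightest genes are named below whatever their difference.

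The other storage genes had overlapping groups. The ferritin light chain FTL was 9.06 ± 0.24 (suckling) and 8.97 ± 0.11 (weaned), and PCBP2, which hands iron to ferritin, 4.66 ± 0.68 and 4.53 ± 0.25 (SD, n = 4 each). All 4 tested genes of this list, FTH1 and NCOA4 included, had a lower weaned mean, with a median of -0.19. Without suckling replicate 1 the differences were -0.14 for FTL and -0.38 for PCBP2. Among uptake and transferrin genes, STEAP1, a metal reductase family member, differed by 1.24 (limma adjusted p = 0.482), transferrin (TF) by -1.14 (0.651) and lactoferrin (LTF) by 0.97 (0.688), all with overlapping groups. Without suckling replicate 1 these differences were 1.78, -2.02 and 0.42, and the STEAP1 groups no longer overlapped. TF was lowest of all in suckling replicate 1 (-2.13) and highest in suckling replicate 2 (2.35).

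Of the genes upstream of hepcidin, SMAD7, an inhibitor of the signal that raises it, was 2.69 ± 0.57 (suckling) and 2.27 ± 0.16 (weaned), and SMAD4, which transmits that signal, 2.08 ± 0.12 and 2.06 ± 0.23 (SD, n = 4 each). The SMAD7 difference was -0.43 (limma adjusted p = 0.554) with all arrays and -0.71 (0.0519) without suckling replicate 1, where the groups no longer overlapped, and that of SMAD4 was -0.02 and -0.03. The ligand BMP6 was dim, with no array well above background. Of the 10 heme genes tested, FLVCR2 included, 6 had a higher weaned mean. SLC46A1, a folate transporter that also takes up heme, differed by -0.55 and ABCG2, an exporter of heme precursors, by 0.32 (limma adjusted p = 0.731 and 0.851). Without suckling replicate 1 SLC46A1 differed by -1.11, with all weaned arrays lower, and ABCG2 changed sign to -0.18.

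Copper genes other than SLC31A1 differed little, with SLC31A2, its paralogue, at -0.24 and CCS, the chaperone that loads copper into superoxide dismutase, at -0.04 (limma adjusted p = 0.613 and 0.937). NFS1, which supplies sulphur for iron-sulphur clusters, differed by -0.07. Without suckling replicate 1 these were -0.34 for SLC31A2, -0.07 for CCS and -0.19 for NFS1. Of 8 tested zinc genes, SLC39A7, which releases zinc from internal stores, differed by -0.03 and SLC30A5, which fills the secretory pathway with zinc, by 0.49 (limma adjusted p = 0.956 and 0.357). Without that array they differed by 0.06, on the other side of 0, and by 0.63, with all weaned arrays of SLC30A5 higher. MT3, the other metallothionein with a probe, was 2.84, 2.76, 2.48 and 2.59 in suckling replicates 1 to 4 and 2.97, 3.13, 3.38 and 3.26 in weaned replicates 1 to 4. Its groups did not overlap either, and the difference was 0.52 (SE 0.15, limma adjusted p = 0.251), or 0.57 without suckling replicate 1. As with the MT1A probes, the MT3 probe may also detect relatives, so the 2 genes may not be separate measurements.

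**Figure D5:**
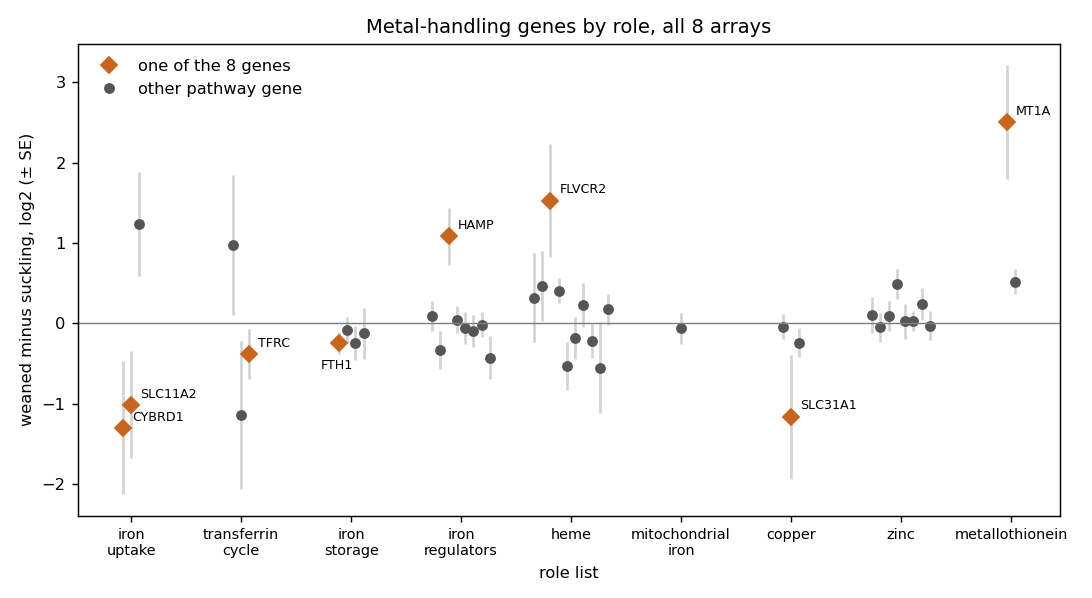
Weaned minus suckling difference (log2, ± SE of the limma fit, all 8 arrays) of the tested genes of each role list, with the 8 genes as labelled diamonds and the other 34 as grey circles. Most other genes lie close to 0, and STEAP1, TF and LTF, with the widest of these differences, have overlapping groups on the 8 arrays.

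For each gene the 3 named genes most like it over the 8 arrays were taken from 2765 by Pearson's r, as a description; all pairs share the same 8 arrays, on 2 slides. For CYBRD1 they were ARL6IP5 (r = 0.975), GLRX, a glutaredoxin (0.971), and DAB1 (0.963). For SLC31A1 they were G6PC, which releases free glucose (r = 0.989), ARL6IP5 (0.980) and PON2 (0.979). SLC11A2 was nearest to ATP5E (0.977), VWF (0.972) and ZFAND5 (0.957). FLVCR2 was nearest to MAT1A, which makes S-adenosylmethionine (r = 0.988), NIP7, a ribosome assembly factor (0.982), and SNRPE, a spliceosome protein (0.975). For these 4 genes r stayed between 0.852 and 0.982 without the 2 arrays farthest from the gene's median, and Spearman's rho was 0.881 to 1.

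HAMP was nearest to FCN1, a ficolin of innate immunity (r = 0.955, rho = 1), SPDEF, a factor of goblet cells (0.954), and PRIM2, a DNA primase subunit (0.952). MT1A was nearest to SRSF5 (0.941), CCAR2 (0.929) and the apolipoprotein APOA2 (0.917). TFRC was nearest to UPK1A (0.973), RHOV (0.967) and FCN2 (0.932), and FTH1 to MITF (0.944), GJA4 (0.905) and SLN (0.888). Without the 2 farthest arrays, r for these 12 pairs was 0.789 to 0.936.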

How the data were processed

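Jejunal RNA of 4 suckling and 4 weaned piglets was measured on 1-colour arrays, 1 for each piglet. Scans were read with Agilent Feature Extraction 10.7, per the file headers, and the deposited intensity had background subtracted by that software. The authors' deposited log2 table of the whole series shares 1 distribution over its columns, with medians of 5.50; its processing is not given in the sources used here.

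Control spots were left out, spots marked as outliers set to missing and spots of a probe averaged as log2 values, which left 43603 probes; each array's 75th percentile was subtracted. Probes well above background on at least 4 arrays, with at least 3 values per group, were tested: 30554. RefSeq accessions were named without versions through RefSeq gene names (assembly Sscrofa11.1), giving 6924 probes a symbol; no sequence or position was used. The weaned and suckling groups entered limma 3.58.1 (R 4.3.3; two-sided, group as the sole term, Benjamini-Hochberg over all tested probes). Marker sums add the linear signals of each marker's brightest probe and were compared by exact permutation over 70 arrangements, whose smallest p is 0.0286. The fit was tested on simulated data with known differences and independent noise for each probe and array. That setting had no slide effect and no array set apart, so it does not cover these features of the data. The number of arrays limits the precision.

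The genes and lists were chosen with earlier results of these data known. Named beside the 8 genes are the 2 brightest tested genes of each role list, any past the threshold, and the 3 most like each gene. Alternatives were quantile normalisation, median scaling, normexp correction (offset 50, on the median spot intensity, as no mean is in the files, then quantile normalisation), other filters on dim probes, outlier spots kept, the deposited log2 table, the replicate number as a block, each array left out, and averaging all probes of a gene. P-values measure the spread between these piglets. The values of 1 further pathway gene are not reported here.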

Additional observations from a re-analysis of the deposited data

Results flagged for a closer look

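In 72 groups of 4 values (the 8 genes, the named role-list genes and the marker sums, in each group of piglets), 4 had 1 array far from the other 3, measured as its gap to the nearest array divided by the group's range; chance gives about 1 in 20, or 3.6 here. CYBRD1 was highest in weaned replicate 3 (0.864), at 1.85 against 0.54 to 0.72. SMAD7 was lowest in suckling replicate 1 (0.905), at 1.85 against 2.93 to 3.04. The smooth muscle marker sum was highest in suckling replicate 3 (0.895), at 278 against 128 to 143, and the neutrophil marker sum in weaned replicate 1 (0.973), at 3.67 against 2.29 to 2.33.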

How the results depend on the processing

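Over 17 alternatives for each of the 8 genes, 132 of 136 values kept their direction and their side of the threshold. The exceptions were CYBRD1, SLC31A1 and FLVCR2 without suckling replicate 1 (-2.22, -2.03 and 2.32, now past it) and FTH1 under normexp correction followed by quantile normalisation (0.03, reversed; -0.01 under quantile normalisation alone). The count of the 8 genes past the threshold was 0 to 3 when 1 array was left out, with 3 without suckling replicate 1 alone. These 3 are the genes that an earlier analysis of these arrays had named, so their count is no separate evidence. Of all tested probes, 1.82% were past the threshold without that array. The count over all probes was 9 to 553 when 1 array was left out, against 54 with all (553, 21, 25 and 40 without suckling replicates 1 to 4, and 10, 11, 20 and 9 without weaned replicates 1 to 4), and 0 with the replicate number as a block. The block changed no other call. With it the SE rose for FTH1 and MT1A and fell for the other genes, among them SLC11A2 (0.66 to 0.35) and TFRC (0.31 to 0.19). Deviations from the group means correlated at 0.368, 0.008, 0.186 and -0.018 between arrays of numbers 1 to 4. Arrays of unlike numbers were not compared, so these values cannot show whether the numbers pair the piglets. The main fit had no block because the labels tie no number to a litter. No further pathway gene passed under any alternative. Endothelial and enteroendocrine marker sums were the 2 of 13 below 0.05 under each setting run (exact permutation p = 0.0286).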

Other observations

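The probes of FTH1 differed in how far they fell in suckling replicate 1. The brightest probe ranged 1.17-fold over the suckling arrays, with suckling replicate 1 at 9.60 among 9.50 to 9.73. The dimmest of the 10 stood at 7.10 in suckling replicate 1 and at 8.82 to 9.14 in the other 3 suckling arrays, and its difference between the groups was -0.71 with all arrays and -1.17 without that array.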
